A study of Xenopus laevis with 9 samples.

Results

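Membrane transporters, ion pumps and channels were read from 207 probesets of 15476 tested on Affymetrix *Xenopus laevis* GeneChips, in lens, in corneas after lens removal and in sham operated corneas. The probesets were chosen by gene symbol alone. Each carried 1 symbol that began with that of a solute carrier (slc), aquaporin (aqp), sodium pump (atp1), calcium pump (atp2), connexin (gja, gjb, gjc), potassium channel (kcn), ABC protein (abc), chloride channel (clcn), sodium channel (scn), calcium channel (cacn) or TRP channel (trp). They stood for 159 genes, or 181 symbols when the L and S homoeologs, the paired gene copies of this tetraploid frog, were counted apart. A few matched by letters without being channels or carriers. These were atp23.L, a mitochondrial protease, slc9a3r1, a scaffold protein, and the 8 probesets of abce1 and abcf genes, whose proteins have no membrane part.

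The lens has no blood supply, and its fibre cells lose their organelles. Its cells are fed and kept clear by a circulation of ions and water in which sodium pumps, potassium channels, glucose and amino acid carriers, aquaporins and connexin gap junctions take part. The corneal epithelium is a barrier layer that faces water, and the inner cornea pumps ions and fluid to keep the stroma thin. When the lens of a *Xenopus* tadpole is removed, outer corneal cells exposed to the vitreous can form a new lens, which is called cornea to lens transdifferentiation (CLT).

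Wild type tadpoles at stage 50 gave all 3 groups, each of 3 arrays from what the study describes as replicate pools of tissue. Whole lenses made up L1, L2 and L3. Corneas taken 3 days after lens removal, which the study calls corneas undergoing CLT, made up R1, R2 and R3. Corneas taken 3 days after a sham operation that left the lens in place made up S1, S3 and S4. As in R, the outer cornea had been cut and was healing. Lens removal also ruptured the inner cornea, which the sham operation left in place, so R and S differ in that injury too. The tadpoles recovered overnight in dilute salts and then in warmer water, and the L lenses came from the animals whose corneas were later taken for R. By the study's methods the corneas carried some surrounding epidermis. The study also reports that CLT fails in part of the operated eyes. A pool of R can thus hold corneas without CLT as well as corneas at different steps of it. From the lower crystallins of R2 the authors inferred that CLT there lagged or took place in fewer corneas. Values below are linear probeset intensities, always in the order L1, L2, L3, then R1, R2, R3, then S1, S3, S4, and the intensities of different probesets are not compared.

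Some facts of the arrays bear on every result. The 7 crystallins measured, of 14 listed, were all higher in L than in S, and their summed intensity ran from 8894 to 9283 in L, was 88.1, 22.3 and 54.6 in R1, R2 and R3, and ran from 8.77 to 13.1 in S. All 13 measured epithelial markers of 21 listed and all 7 stromal markers of 10 were lower in L. Leukocyte markers were lower in L for 5 of 6 measured. S4 resembled an average of the other S arrays. Its variance about that average, over the variance of their difference, was 0.232 for all probesets and 0.356 for the transport probesets. Independent errors give at least 0.25, and the value for all probesets lay below that. If S4 is not an independent pool, the spread within S is understated and p values against S are too small. Whether it is was not tested. Over the 207 probesets the median correlation of log2 intensity was 0.96 between L arrays, 0.926 between R arrays, 0.983 between S arrays, 0.935 between R and S, and 0.582 between L and S. The 5th percentile of an array was about 1 (0.984 to 1.06), so a difference from a group near 1 has no exact size. The upper quartile of an array ran from 8.99 to 9.86 in L, 17.8 to 20.1 in R and 17.5 to 20.4 in S. Array medians were alike, from 2.99 to 3.29. Probesets of middling brightness thus tended to read lower in L on the deposited values. Of the 207 probesets, 129 had a mean under 8 in every group.

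Lens against sham operated cornea asked which transport genes mark which tissue. In the lens, an aqp3 probeset, the light chain of the exchanger of large neutral amino acids, gja1, a sodium pump beta subunit and a glucose carrier were higher. The other aqp3 probeset, other amino acid carriers, slc4a11, another sodium pump beta subunit and gjb2 were lower. With a limma fit of all 9 arrays and an adjusted p under 0.05 over all 15476 probesets, 57 transport probesets were higher in L, 52 were lower and 98 did not pass. The 52.7% that passed lay near the background, since 53.4% of all probesets passed, 22.9% higher and 30.6% lower. The same shares of all probesets are the background for the counts by role below. At an unadjusted p under 0.05 there were 128, against 59.3% of all. All L lay above all S for 81 transport probesets and below for 65, against 31.5% and 35.9% of all probesets. The median log2 difference was 0.22 over the set and 0.02 over all probesets. Fewer cells of a type and less RNA per cell cannot be told apart in such samples, and the epithelial, stromal and leukocyte markers above moved with the same contrast. Their part in the differences was not tested.

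**Figure D1:**
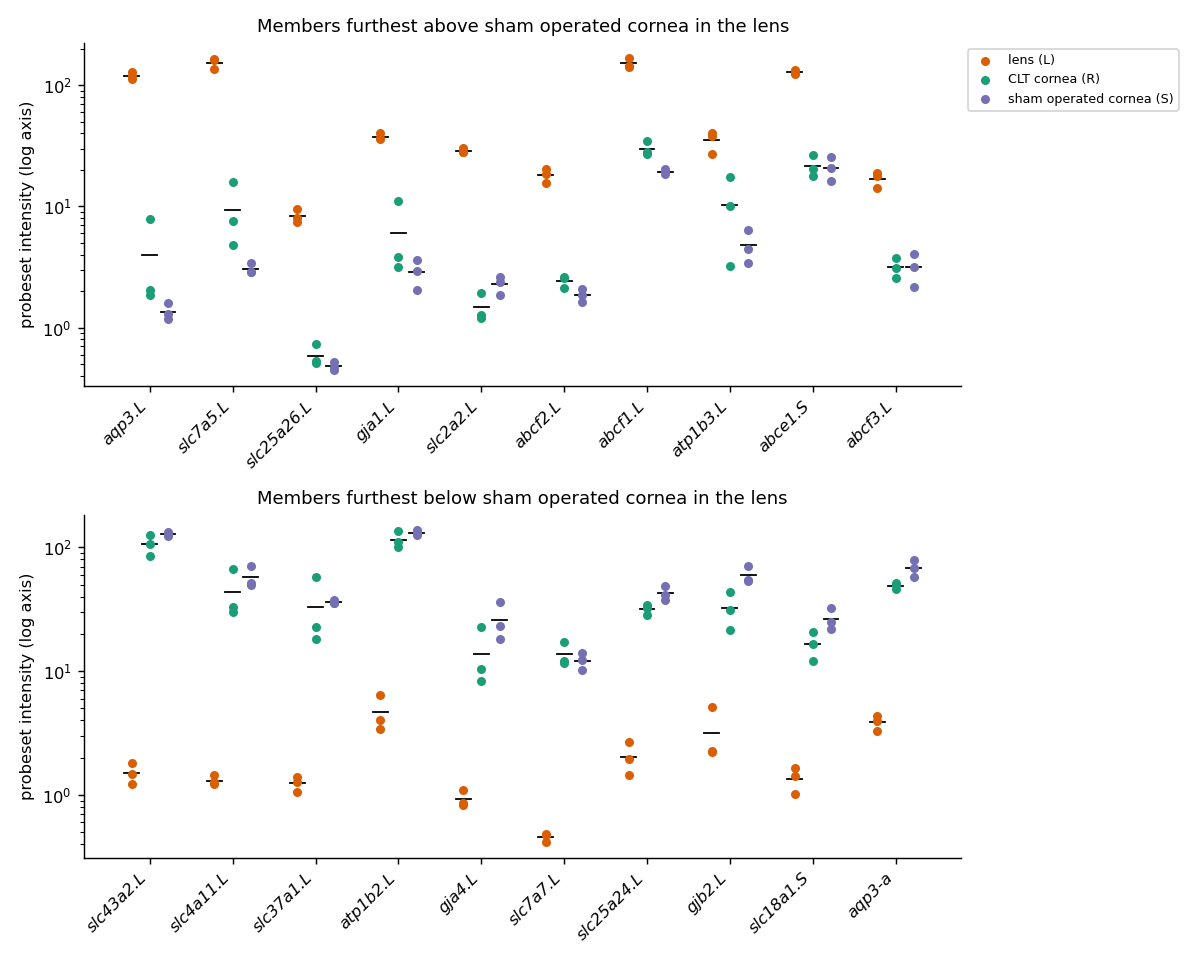
Intensity (log axis) of the 10 transport probesets furthest above S in the lens (upper) and the 10 furthest below (lower), with 1 point per array and a bar at the group mean. In all 20 the L points overlap neither the S nor the R points.

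**Figure D2:**
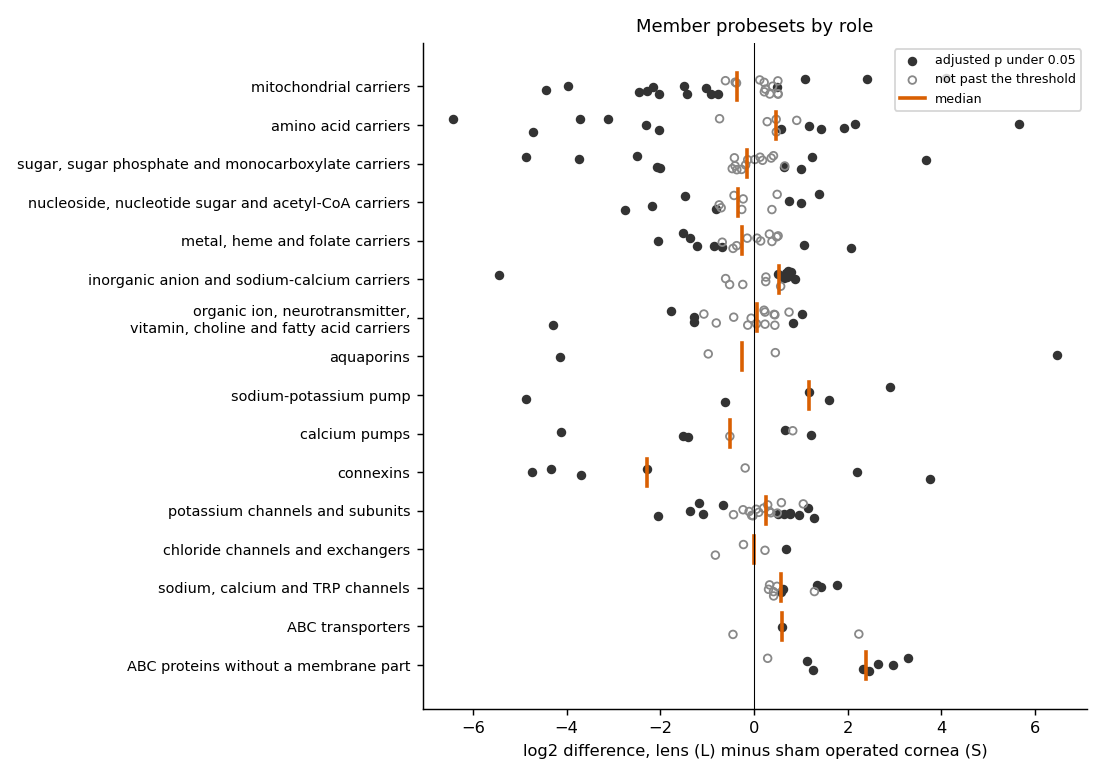
Log2 difference of L minus S for each transport probeset, 1 row per role, filled where the adjusted p was under 0.05, with the median of the role as an orange bar. Most roles hold filled points on both sides of 0, and the abce1 and abcf proteins lie on the lens side.

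Water channels gave the furthest lens value of the set. The aqp3.L probeset, for an aquaporin that passes water and glycerol, read 113, 128 and 119 in L, 2.06, 1.88 and 7.94 in R, and 1.59, 1.18 and 1.30 in S. The log2 difference of L minus S was 6.48 ± 0.47 (SE), adjusted p = 3.68e-06, and no L value came near a corneal one. A probeset annotated aqp3-a went the other way, at 3.30, 3.99 and 4.34 in L, 46.1, 51.4 and 49.7 in R, and 57.9, 78.9 and 68.7 in S (log2 −4.14 ± 0.18, adjusted p = 1.56e-07). The gene ID behind aqp3-a was not found in the RefSeq gene table used here, so which copy it measures is not known. Of the other aquaporin probesets, aqp2.S lay near 1 to 2 on all arrays and aqp11.L is taken up with the corneas below.

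Connexins, the channels of gap junctions, split by gene. Both probesets of gja1.L were higher in L, the brighter at 36.1, 36.9 and 40.1 in L, 3.14, 11.2 and 3.79 in R, and 2.04, 3.59 and 2.94 in S (log2 3.76 ± 0.43, adjusted p = 7.35e-05). The other probeset read 12.1 to 13.8 in L and 2.17 to 3.42 in S (log2 2.20 ± 0.22). In mammals gja1 is the connexin of the lens epithelium. Of the other connexins 4 probesets were lower in L. For gjb2.L, whose human counterpart is a common deafness gene, values were 2.25, 2.23 and 5.09 in L, 21.5, 31.1 and 44.0 in R, and 53.9, 71.2 and 54.5 in S (log2 −4.33 ± 0.36, adjusted p = 9.41e-06). For gja4.L, known from blood vessel walls in mammals, L lay at the floor (0.835, 0.868 and 1.11) against 18.2, 36.5 and 23.0 in S (adjusted p = 7.26e-06). The connexin counts, 2 higher and 4 lower of 7 probesets, were the same under each scaling tried.

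The sodium pump was represented by its beta subunits, which carry the catalytic subunit to the membrane. All 5 probesets passed, and the subunits went in opposite directions. The atp1b2.L probeset read 6.45, 3.42 and 4.06 in L, 101, 110 and 135 in R, and 130, 137 and 127 in S (log2 −4.87 ± 0.24, adjusted p = 3.3e-07). The 3 probesets of atp1b3 were higher in L, with atp1b3.L at 40.0, 38.2 and 27.0 in L, 10.01, 17.6 and 3.23 in R, and 3.43, 6.44 and 4.46 in S (log2 2.90 ± 0.54, adjusted p = 0.00148). The R arrays of atp1b3.L ran from below the lowest S value to above the highest. Intensities of atp1b1.S were 165, 162 and 169 in L and 229, 281 and 255 in S (log2 −0.62 ± 0.15, adjusted p = 0.00566), a call that was lost under quantile normalisation and cyclic loess.

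Calcium pumps showed the same kind of split, and their median log2 difference of −0.51 turned to 0.44 under quantile normalisation and 0.38 under cyclic loess. The atp2a3.L probeset, for a pump of the endoplasmic reticulum, lay at the floor in L (1.16, 0.956 and 0.655), read 2.19, 10.7 and 4.53 in R, and stood at 15.9, 15.7 and 15.4 in S (log2 of L minus S −4.12 ± 0.48, adjusted p = 8.55e-05). Its S values were nearly alike and its R values spread widely below them. The atp2a1.S probeset that reads the muscle form was lower in L (38.9, 27.5 and 39.1 against 84.6, 120 and 95.4 in S, log2 −1.51 ± 0.21). A second atp2a1.S probeset lay near 1 in S and at 1.09 to 1.87 in L, and passed in the other direction (adjusted p = 0.0316, from 0.068 to 0.102 without L1, L2, S1, S3 or S4). Skeletal muscle markers summed to 30.9 to 38.5 in L, 181 to 221 in R and 163 to 199 in S, sums carried by ckm.L and tpm1.L. Of the 13 measured, these and tpm2.S were lower in L, while 4 dim ones (myl1.S, myog.L, tnnc2.L and tnnt3.S) were higher, and their part in the atp2a1 difference was not tested. The plasma membrane pump atp2b1.L read 6.49, 5.54 and 2.96 in L, 13.3, 38.2 and 19.9 in R, and 13.3, 12.7 and 12.0 in S (log2 −1.42 ± 0.40, adjusted p = 0.0137), a call lost under quantile normalisation (adjusted p = 0.187). For atp2a2.S, the pump of most cells, neither probeset passed, and the brighter turned sign with scaling (log2 −0.51, adjusted p = 0.0346 without L2, against 0.44 under quantile normalisation).

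Amino acid carriers held the furthest differences in both directions among the solute carriers, with 6 probesets higher and 6 lower of 17. The slc7a5.L probeset, for the light chain of the exchanger that brings leucine and other large neutral amino acids into cells, read 160, 165 and 136 in L, 4.83, 15.8 and 7.62 in R, and 3.40, 2.90 and 2.88 in S (log2 5.65 ± 0.36, adjusted p = 1.62e-06). Every R value was above every S value, and the difference between those groups did not pass. Probesets of its partner, the heavy chain slc3a2, did not pass between L and S. The slc3a2.S probeset read 37.1 to 53.7 in L and 29.7 to 34.2 in S. It was called higher in L under quantile normalisation (log2 1.17), cyclic loess (log2 1.39) and array weights (log2 0.48). The slc3a2.L probeset, at 1.05 to 3.56 on all arrays, was called lower in L without S1 (adjusted p = 0.0279). Under cyclic loess (log2 −1.01) and array weights (log2 −0.83) it was called lower too. Where a setting gave a call, the direction differed between the 2 probesets, of which that of slc3a2.L lay near the floor. The sodium-coupled carrier slc38a2.L read 62.9 to 67.3 in L and 21.9 to 26.5 in S (log2 1.44 ± 0.24). On the cornea side, slc43a2.L, a uniporter of large neutral amino acids, read 1.81, 1.49 and 1.23 in L, 85.2, 107 and 125 in R, and 123, 128 and 133 in S (log2 −6.42 ± 0.20, adjusted p = 4.19e-08). Its homoeolog slc43a2.S had the same direction (log2 −3.71 ± 0.26). The light chain slc7a7.L, which exchanges basic for neutral amino acids, was under the floor in L (0.416 to 0.486) against 10.2 to 14.02 in S and 11.7 to 17.2 in R. Further members, singled out after their values were seen, were the glutamine carriers slc38a5.S (log2 −3.11) and slc1a5.S (log2 −2.30), lower in L, and the basic amino acid carrier slc7a3.L (log2 1.17), higher.

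Carriers of sugars, sugar phosphates and monocarboxylates gave 4 higher and 5 lower of 22 probesets, or 6 and 5 under quantile normalisation. The slc2a2.L probeset, for a glucose carrier known in mammals from liver and the insulin cells of the pancreas, read 28.3, 30.4 and 27.9 in L, 1.26, 1.94 and 1.21 in R, and 1.87, 2.64 and 2.36 in S (log2 3.67 ± 0.22, adjusted p = 1.05e-06). No passing difference was found for slc2a1.L, the glucose carrier of most cells, whose probesets read 12.5, 10.9 and 12.1 in L and 14.04, 21.0 and 13.3 in S, and 18.2, 24.4 and 15.5 in L and 17.0, 24.5 and 21.8 in S. Their log2 values of −0.42 and −0.13 turned to 0.55 and 0.80 under quantile normalisation and 0.59 and 0.88 under cyclic loess, where both were called higher in L, so for slc2a1 the direction rests on the scaling. For slc37a1.L, which exchanges glucose phosphate for phosphate at the endoplasmic reticulum, L read 1.40, 1.05 and 1.28, R read 57.7, 22.6 and 18.1, and S read 35.7, 37.9 and 35.3 (log2 −4.87 ± 0.37, adjusted p = 5.01e-06). R lay on both sides of S. The related slc37a2.L (log2 −3.72) and slc37a3.L (log2 −2.50) and the sugar channel slc50a1.L (log2 −2.01) were also lower in L, the last 2 singled out after their values were seen. The lactate carrier slc16a1.S, likewise singled out, read 12.2, 18.5 and 13.9 in L and 3.19, 9.58 and 7.78 in S (log2 1.24 ± 0.38, adjusted p = 0.0201, and 0.0702 without L2).

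Mitochondrial carriers were counted as the slc25 family. Most of them move metabolites across the inner membrane of an organelle that mature lens fibres lack, but the peroxisomal carrier slc25a17 is counted too. They were lower in L for 11 probesets of 27 (40.7%) and higher for 4 (14.8%). Over all probesets 30.6% were lower and 22.9% higher. The median log2 difference of these carriers was −0.37, against 0.02 over all probesets. Under quantile normalisation it was 0.135, against 0.136 over all probesets. There 9 were lower and 4 higher, against 7 and 4 under cyclic loess. The calcium-regulated carrier of ATP and phosphate slc25a24.L read 1.94, 2.68 and 1.45 in L, 34.5, 32.5 and 28.4 in R, and 49.1, 37.4 and 41.4 in S (log2 −4.43 ± 0.23, adjusted p = 4.82e-07). Its relative slc25a25.L was at 75.3, 59.2 and 48.3 in L, 166, 180 and 157 in R, and 334, 366 and 292 in S (log2 −2.46 ± 0.20). For a probeset of the iron carrier slc25a28.L, values were 6.67 to 11.03 in L, 95.9 to 130 in R and 124 to 144 in S (log2 −3.97 ± 0.21). The other slc25a28.L probeset did not pass and had the opposite sign (log2 0.51). The ADP and ATP exchanger slc25a5.L read 208 to 223 in L and 415 to 469 in S (log2 −1.01 ± 0.15, adjusted p = 0.000452). In the other direction stood slc25a26.L, the carrier of S-adenosylmethionine, at 7.99, 7.43 and 9.54 in L, while R (0.507 to 0.729) and S (0.447 to 0.516) were under the floor. Higher values were also found in L for slc25a13.L, the aspartate and glutamate exchanger (log2 1.10), and slc25a11.L, the oxoglutarate and malate exchanger (log2 2.41), both singled out after their values were seen.

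Carriers of anions were headed by slc4a11.L, known from the corneal endothelium in mammals and mutated in a human corneal dystrophy. It read 1.26, 1.22 and 1.44 in L, 66.9, 30.1 and 33.3 in R, and 51.8, 71.3 and 49.6 in S (log2 −5.44 ± 0.30, adjusted p = 5.88e-07), and R and S overlapped. The other 13 probesets of this role, which holds sodium-calcium exchangers and 3 probesets of the scaffold protein slc9a3r1, were dim. Higher in L were 6 carriers with log2 values of 0.52 to 0.78 and slc9a3r1.S with 0.87, and under cyclic loess only 1 of the role was higher and 3 were lower. The red cell anion exchanger slc4a1.L lay between 0.888 and 2.86 on all arrays. Among carriers of metals, heme and folate, 2 were higher and 6 lower of 18, against 2 and 2 under quantile normalisation. Folate carrier slc46a1.L (5.43 to 11.2 in L, 26.9 to 34.8 in S) and zinc exporter slc30a1.L (11.9 to 29.2 in L, 46.3 to 66.0 in S) were lower, the latter not under quantile normalisation, and slc30a9.S (13.9 to 20.5 in L, 3.07 to 4.72 in S) was higher, all 3 singled out after their values were seen. Of the 19 probesets for organic ions, transmitters, vitamins, choline and fatty acids, 2 were higher and 4 lower, against 2 and 6 under quantile normalisation and 2 and 7 under cyclic loess. The vesicular monoamine carrier slc18a1.S read 1.42, 1.64 and 1.02 in L, 20.8, 16.7 and 12.1 in R, and 32.3, 21.8 and 24.9 in S (log2 −4.28 ± 0.27, adjusted p = 1.3e-06). Carriers of nucleosides and nucleotide sugars gave 3 higher and 4 lower of 14, against 3 and 2 under quantile normalisation and 2 and 3 under cyclic loess. The carrier of UDP-galactose slc35a2.L (log2 −2.74) was lower, and the nucleoside carrier slc29a1.S, at 7.32 to 7.50 in L and 2.24 to 3.72 in S, was higher (log2 1.39), both singled out likewise.

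Channels for ions were dim throughout, and most of their differences were small. Of 26 potassium channel probesets 7 were higher and 5 lower in L, or 4 and 5 under cyclic loess. The brightest by the rule used were kcnk5.S, a background potassium channel, at 10.4, 12.4 and 10.1 in L and 14.4, 23.3 and 15.3 in S (log2 −0.66 ± 0.21, adjusted p = 0.0235, from 0.0633 to 0.0783 without L1, L3 or S3), which turned to 0.31 under quantile normalisation, and kcnq1.L. The latter, a voltage-gated channel of epithelia and heart, was at 1.14, 0.729 and 0.737 in L, 3.55, 11.3 and 8.14 in R, and 3.29, 7.46 and 1.76 in S (log2 −2.04 ± 0.55, adjusted p = 0.0116), a call lost with an offset of 8 and with array weights. Each of these genes had another probeset that did not pass, with log2 0.05 for kcnk5.S and −0.02 for kcnq1.L. Sodium, calcium and TRP channels gave 5 higher and none lower of 11 (3 higher under quantile normalisation or cyclic loess). Of the 11, 7 had all L above all S. Over all probesets 22.9% were higher and 31.5% had all L above all S. All 11 had a mean under 8 in every group. The cation channel trpc1.L read 5.51, 5.11 and 4.66 in L, 2.43, 1.84 and 2.48 in R, and 2.86, 1.92 and 1.48 in S (log2 1.34 ± 0.25, adjusted p = 0.00151). The muscle calcium channel subunit cacng1.L read 2.87, 4.30 and 3.45 in L and 1.12 to 1.61 in S (log2 1.43 ± 0.23), and a probeset of cacna1a.S, a neuronal calcium channel, singled out afterwards, read 2.07, 3.74 and 4.01 in L and 0.764 to 1.11 in S. All of these lie within a few units of the floor. Among endosomal chloride and proton exchangers, clcn5.L was at 4.06 to 5.75 in L and 2.58 to 3.25 in S (adjusted p = 0.0478, from 0.0571 to 0.147 with an array of L or S left out) and clcn3.S did not pass.

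ABC proteins divided by type. Of the 8 probesets of abce1 and the abcf genes, whose proteins act with ribosomes and transport nothing, 7 were higher in L and 8 had all L above all S. The shares of all probesets were 22.9% and 31.5%. Values of abcf1.L were 167, 142 and 144 in L, 27.3, 34.4 and 28.0 in R, and 18.5, 20.4 and 19.2 in S (log2 2.96 ± 0.16, adjusted p = 5.53e-07). The ribosome recycling factor abce1.S read 124 to 134 in L and 16.1 to 25.5 in S (log2 2.64 ± 0.22), and abcf2.L read 20.5, 15.7 and 18.5 in L and 1.63 to 2.08 in S (log2 3.30 ± 0.18). They make up 7 of the 57 higher calls of the set and are counted there by their letters only. Of the 3 ABC transporters, abcb1.L, the drug efflux pump, was higher (3.09, 3.46 and 3.65 in L, 2.11, 2.51 and 2.15 in S, log2 0.59 ± 0.16), a call lost under cyclic loess and with the replicate block.

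Corneas undergoing CLT against sham operated corneas, the comparison for which the study was made, gave 2 calls in the transport set: slc25a1.L was lower in R and slc48a1.L was higher. Of all probesets 1.12% passed, 0.485% higher and 0.64% lower, so 2 of 207 lay near the background. At an unadjusted p under 0.05 there were 37, against 14.5% of all probesets. The median log2 difference was 0.08 over the set and 0.06 over all probesets. All R lay above all S for 35 probesets and below for 20, against 12.3% and 9.82% of all.

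The citrate carrier slc25a1.L, which exports citrate from mitochondria for lipid synthesis, read 2.85, 3.99 and 2.46 in L, 3.75, 5.49 and 4.92 in R, and 15.4, 14.5 and 14.4 in S. R lay far below S, and its range overlapped that of L, although L was called lower than R (log2 −0.62, adjusted p = 0.0421). That call was lost without L1, L3, R2, R3 or any S array. It was also lost under quantile normalisation (log2 −0.47, adjusted p = 0.112), cyclic loess (log2 −0.04, adjusted p = 0.88) and several other settings. The log2 difference of R minus S for slc25a1.L was −1.66 ± 0.22, with adjusted p = 0.00892. Without S4 the adjusted p was 0.0512, and without R2 and S4 it was 0.0627. The heme carrier slc48a1.L, which takes heme out of endosomes and lysosomes, read 48.6, 48.7 and 52.2 in L, 43.8, 44.1 and 64.5 in R, and 22.7, 28.3 and 20.9 in S. All L values lay within the range of R, and all S values were lower, with a log2 difference of R minus S of 1.07 ± 0.20 and adjusted p = 0.0441. That call was lost when any 1 array other than R2 was left out (adjusted p from 0.0503 to 0.215). Its homoeolog slc48a1.S lay between 1.14 and 2.51 on all arrays. Red cell markers summed to 60.7, 582 and 81.2 in L, 1529, 937 and 787 in R, and 1933, 1120 and 1587 in S. Their part in the heme carrier result was not tested.

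**Figure D3:**
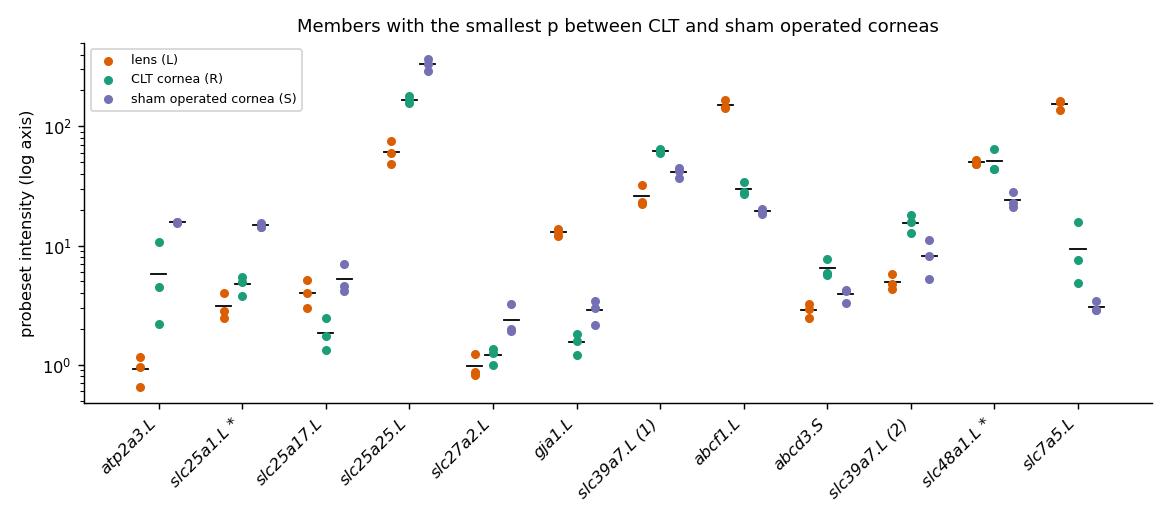
Intensity (log axis) on each array of the 12 transport probesets with the smallest p between R and S, in order of the log2 difference, with a bar at each group mean. The 2 marked with an asterisk, slc25a1.L and slc48a1.L, passed, and slc39a7.L and its second probeset are numbered.

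Below the threshold in the same direction as slc25a1.L stood 5 more probesets. For slc25a25.L the values given above put all R (157 to 180) below all S (292 to 366), with log2 −0.98 ± 0.20 and adjusted p = 0.0569, which ran from 0.0159 to 0.0486 in 10 of the alternative settings. The peroxisomal carrier slc25a17.L read 1.33, 2.46 and 1.75 in R and 4.57, 6.99 and 4.12 in S (log2 −1.51 ± 0.30, adjusted p = 0.0604, and 0.034 without R2), and its homoeolog slc25a17.S also had all R below all S, though narrowly (6.07, 17.9 and 17.9 in R, 18.6 to 25.8 in S). For atp2a3.L the log2 difference of R minus S was −1.72 ± 0.48 (adjusted p = 0.149), and without R2 it was −2.31 with adjusted p = 0.0186. The dimmer gja1.L probeset was at 1.21, 1.60 and 1.81 in R and 2.98, 3.42 and 2.17 in S (log2 −0.89 ± 0.22, adjusted p = 0.108), while the brighter had a log2 difference of 0.88 ± 0.43 the other way, so the 2 readings of 1 gene disagreed. For slc27a2.L, a fatty acid carrier and acyl-CoA synthetase, R was 0.996 to 1.35 and S 1.92 to 3.24.

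On the higher side, slc7a5.L came closest. Its R values of 4.83, 15.8 and 7.62 were all above S (2.88 to 3.40), with log2 1.45 ± 0.36 and adjusted p = 0.108 (0.0252 without R1), and all were far below L. Both probesets of slc39a7.L, which releases zinc from the endoplasmic reticulum, had all R above all S, at 60.3, 64.8 and 60.7 against 37.2, 45.1 and 42.2 (log2 0.58 ± 0.18, adjusted p = 0.199) and at 18.01, 15.6 and 12.9 against 8.15, 11.1 and 5.28 (log2 0.97 ± 0.28, adjusted p = 0.153). In L they read 22.4 to 32.5, below both corneas (log2 of L minus S −0.69, adjusted p = 0.0111, but 0.11 under quantile normalisation), and 4.29 to 5.77, below R and overlapping S. The peroxisomal fatty acid transporter abcd3.S read 7.76, 5.66 and 5.91 in R and 3.31 to 4.23 in S (adjusted p = 0.138), and abcf1.L had log2 0.62 ± 0.16 (adjusted p = 0.118). The lens aquaporin aqp3.L had all R above all S as well, at an adjusted p of 0.281.

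Single R arrays stood out for 9 transport probesets, taken as 1 R array over 3 times the next and at 8 or more. Over the whole array 455 probesets (2.94%) did so, with R1 the high one in 75, R2 in 173 and R3 in 207. R2 was high for 6: abca4.L (6.24, 38.0 and 2.25), scn2b.L (1.45, 16.6 and 4.39), slc32a1.S (1.90, 9.21 and 1.79), slc7a8.S (3.03, 15.5 and 3.48), slc16a3.L (3.12, 10.6 and 1.56) and gja7.S (4.44, 17.9 and 5.08). The first is the retinoid transporter of photoreceptors and the third loads inhibitory transmitter into vesicles. R1 was high for aqp11.L (46.1, 2.70 and 4.35), and R3 for slc37a4.L (2.58, 2.65 and 13.7) and atp23.L. Photoreceptor markers other than abca4, with 10 of 15 measured, summed to 102, 516 and 21.8 in R, to 185, 274 and 112 in L, and to 11.5 to 12.8 in S. The largest part of each R sum was rom1.L (69.7, 288 and 7.16), which read 52.7, 84.2 and 24.1 in L. In S it read 0.430 to 0.713, and of the photoreceptor markers only rom1.L passed between R and S (log2 6.54, limma adjusted p = 0.0267). Much of the L sums came from nrl.S, which was level in L (73.0, 68.8 and 67.0). Unlike the other markers, nrl.S was called higher in L than in R (log2 4.07). Its order across L1, L2 and L3 also differed from theirs, since each of them was highest in L2. The L sums are therefore not taken as a measure of photoreceptors alone. The values of abca4.L, 5.63, 15.0 and 1.45 in L and 0.996 to 1.09 in S, followed the order of the sums within L and within R. Neuronal and glial markers summed to 121, 134 and 102 in L, 123, 187 and 151 in R, and 91.9 to 96.9 in S. The rise in R came largely from tubb3.L, at 22.8, 66.5 and 42.6 in R and 3.40 to 13.8 in S. That probeset was highest in L (80.9 to 107). In R2 mbp.S added 40.3, and the largest part of each S sum was syt1.L (67.4, 45.7 and 52.7). No marker of the neuronal and glial list passed between R and S. None of the 9 transport probesets passed between R and S, and the part of photoreceptor and neural tissue in them was not tested.

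**Figure D4:**
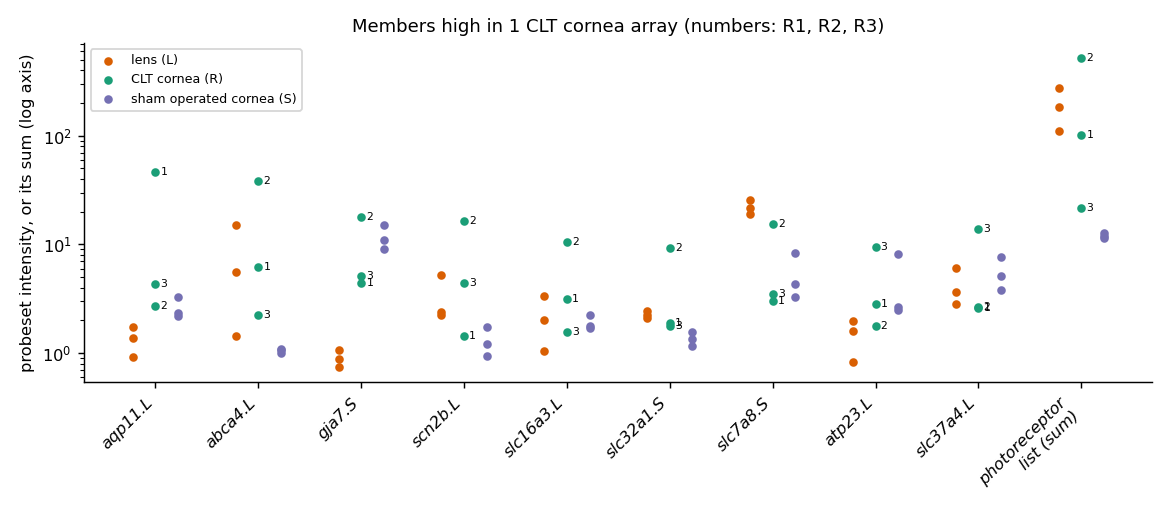
Intensity (log axis) of the 9 transport probesets that were high in 1 R array, and the summed intensity of photoreceptor markers other than abca4 (right), with 1 point per array and the R points numbered. R2 is the high array for 6 probesets and for the marker sum.

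Lens against CLT cornea asked how far the transport genes of the cornea stood from those of the lens 3 days after lens removal. Higher in L were 40 probesets and lower 54, with 48.8% of all probesets passing (18.6% higher, 30.2% lower). All L lay above all R for 58 and below for 54, against 23.2% and 32.4% of all probesets. At an unadjusted p under 0.05 there were 112, against 54.9% of all. The split depended on scaling, since under quantile normalisation, which moved the median of all probesets from −0.07 to 0.11, 55 were higher and 45 lower. Furthest above R were aqp3.L (log2 5.26), slc2a2.L (4.33), slc7a5.L (4.20), slc25a26.L (3.84), both gja1.L probesets (3.09 and 2.88), abcf2.L (2.91), 2 probesets of abce1.S (2.63 and 2.58) and abcf3.L (2.44). Furthest below were slc43a2.L (log2 −6.13), slc4a11.L (−4.96), slc7a7.L (−4.88), atp1b2.L (−4.68), slc37a1.L (−4.53), slc25a24.L (−4.01), slc37a2.L (−3.83), gja4.L (−3.75), slc25a28.L (−3.68) and aqp3-a (−3.67). These 20 passed in every alternative setting that tested them. For slc48a1.L the log2 difference of L minus R was 0.00 (adjusted p = 0.99), with 48.6 to 52.2 in L and 43.8 to 64.5 in R, but it was called higher in L under quantile normalisation (log2 0.60) and cyclic loess (log2 0.92).

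Genes read by several probesets showed how far copies agree. Of 41 genes with 2 or more transport probesets, 12 had at least 2 past the threshold between L and S, in the same direction for 10 and in opposite directions for aqp3 and atp2a1. Both an L and an S copy were measured for 19 genes. In 5 of these both copies passed, each in the same direction. Several other pairs did not match. For slc25a24 the L copy had log2 −4.43 and the S copy, at 6.28 to 6.44 in L and 3.23 to 6.60 in S, had 0.40, which became a call higher in L under quantile normalisation (log2 1.03) and cyclic loess (log2 0.95). For slc25a11 they were 2.41 and −0.40, and for slc7a8 the S copy had 2.16 and the L copy 0.48. Homoeologs are close in sequence and a probeset may read both, so these are values of probesets.

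**Figure D5:**
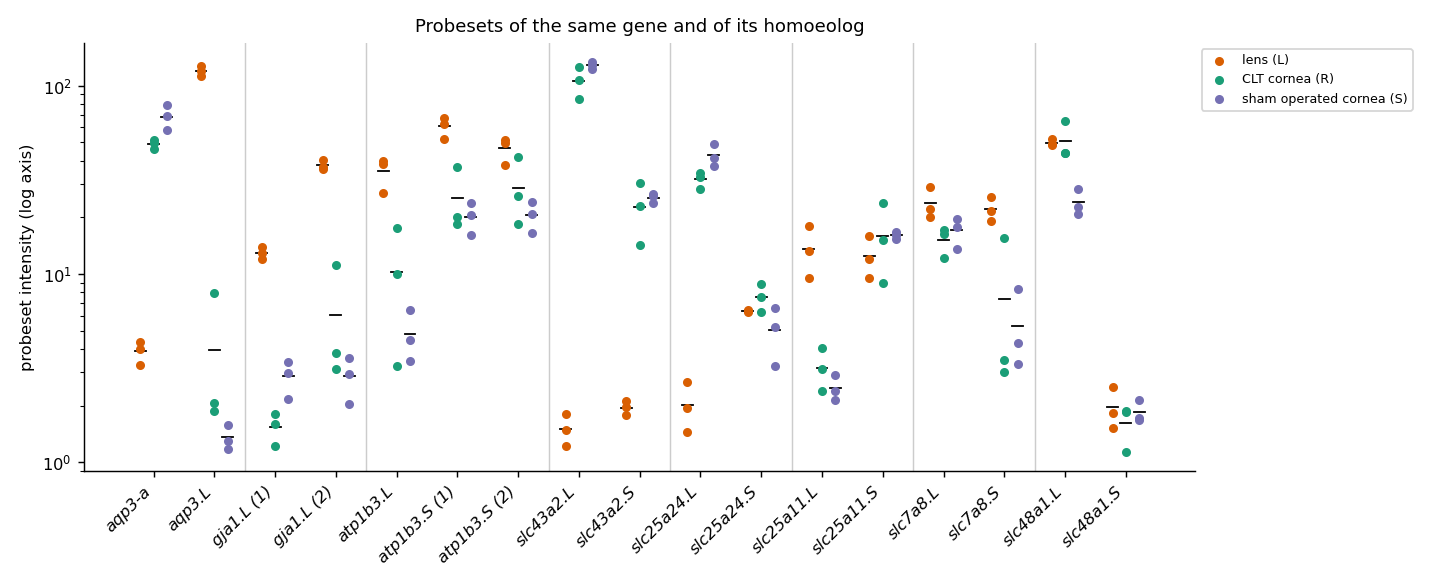
Intensity (log axis) on each array of probesets of the same gene and its homoeolog, for 8 genes set apart by grey lines, with bars at group means and numbers where 2 probesets share a symbol. The aqp3 probesets run in opposite directions, and those of atp1b3 and slc43a2 run the same way.

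Other transport genes, from lists not taken by symbol, were read with 1 probeset per gene, the brightest. Of 15 measured subunits of the V-type proton pump, which acidifies organelles, 13 were lower in L and none was higher (median log2 −1.56). Under quantile normalisation 11 were lower and 1 higher. Of all probesets 30.6% were lower in L than in S and 22.9% higher. For instance, atp6v1g1.S read 6.59, 9.08 and 8.88 in L and 61.3, 44.2 and 67.3 in S. All 3 mitochondrial porins were lower in L, 2 of them under quantile normalisation. The non-gastric proton and potassium pump atp12a.L read 0.949, 6.75 and 2.21 in L, 168, 178 and 227 in R, and 238, 227 and 190 in S (log2 −6.49 ± 0.57). Probesets of the epithelial sodium channel differed between subunits. Those of scnn1b.S (log2 −4.37) and scnn1g.S (log2 −4.73) were lower in L. The scnn1a.L probeset read 205, 207 and 167 in L and 143, 333 and 210 in S and did not pass (adjusted p = 0.73). Whether it also reads other transcripts was not tested. Among lens membrane proteins only lim2.L was measured, at 788, 806 and 764 in L, 1.13 to 2.39 in R and 0.914 to 1.03 in S, and the water channel mip was not analysed here. No gene of these lists passed between R and S.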

How the data were processed

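RNA from pooled lenses and corneas was amplified with a NuGEN Ovation kit and hybridised to 9 GeneChips, with 1 array per pool. The deposited values are linear probeset intensity values that the authors computed with RMA in GenePattern. RMA's options and version are not given in the labels or methods. No scanner files were used, and a probeset has no detection call, so the array floor was taken from the 5th percentile. Of 15611 probesets 135 controls were left out. The platform annotation gave 1 symbol for 9296 probesets, several for 195 and none for 5985, and of the 207 transport probesets 202 had a gene ID in the RefSeq gene table, with the same symbol. The symbol rule removed a final .L, .S, -a or -b.

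Log2 intensities were fitted in limma 3.58.1 (lmFit and eBayes, R 4.3.3, 6 residual degrees of freedom) without a filter, two-sided, and p was adjusted by Benjamini-Hochberg across the 15476 probesets with calls made under 0.05. The script was tested on simulated data. Array weights used statmod 1.5.0, and tables and figures were made in python 3.11.15. Pools are the replicates, so p values measure the spread between these pools only, and the number of arrays limits the precision. An exact permutation test of 3 against 3 cannot give a p below 0.1.

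The transport set, the roles, the marker lists and the rule for named genes were chosen with earlier results of these data known. Named were the 10 probesets furthest in each direction for L against S and L against R (past the threshold, no overlap, higher mean at least 8), those past the threshold and the next 5 in each direction for R against S, the 2 brightest of each family, fixed background genes, and their other probesets. A further 21 members were singled out after their values were seen. Members high in 1 R array were taken by their own rule. Alternatives were offsets of 1 and 8, median centring, quantile normalisation, cyclic loess, a filter on low values (mean log2 of at least 2), array weights, 2-group fits, eBayes with trend and robust options, a replicate block, 1 probeset per symbol and leaving out each array. Leaving out R2 and S4 together was added after the data were seen.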

Additional observations from a re-analysis of the deposited data

How the results depend on the processing

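Most of the named differences between lens and cornea held across settings, but many of them were named because they were large. Of the probesets named for L against S, 64 passed and 46 of these passed in every setting that tested them. For L against R 20 of 21 did, and for R against S neither of the 2. Over all 109 transport calls for L against S, quantile normalisation lost 15 and cyclic loess lost 32. Of the 94 calls for L against R they lost 10 and 19. The count of transport probesets past the threshold for L against S moved from 109 to 68 with the filter on low values, which tested 82 of them, and ran from 96 to 117 with 1 array left out. For L against R it was 94, and 79 to 92 with 1 array left out. For R against S the count of 2 became 4 with an offset of 8, 4 with cyclic loess, 1 in the 2-group fit, 10 with array weights, 0 without R2 and S4 together, a choice made after the data were seen, and 0 to 4 with 1 array left out, the lowest without S4 and the highest without R2. Beside the limma counts of 0, 37 (17.9%) passed an unadjusted limma p under 0.05 for R against S with all arrays. That lay near the 14.5% of all probesets. The cause of the changes in count between settings was not tested.

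With the replicate block the counts were 90 for L against S, 78 for L against R and 0 for R against S. The numbers do not mark shared animals in the labels, and deviations of same-numbered arrays correlated between −0.099 and 0.133. Each L and R array correlated best with its own number among the other group, which did not hold for S.

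Several probesets reversed the sign of L minus S, of which the brighter kcnk5.S, slc35a3.2.S and the brighter slc39a7.L were called with the settings of the report. Under quantile normalisation and cyclic loess, log2 became 0.44 and 0.50 for atp2a2.S, 0.37 and 0.41 for slc25a17.S, 0.31 and 0.35 for the brighter kcnk5.S probeset and −0.045 and −0.229 for the dimmer, 0.174 and 0.208 for slc35a3.2.S (singled out after its values were seen), 0.11 and 0.211 for the brighter slc39a7.L, −0.047 and −0.253 for slc16a3.L, and 0.55 and 0.59, and 0.80 and 0.88, for the slc2a1.L probesets. Cyclic loess gave 0.117 for the dimmer slc39a7.L, −0.039 for a clcn3.S probeset and −0.21 for slc48a1.S, which was −0.094 with array weights. Median centring gave −0.006 for slc16a3.L. The replicate block gave −0.61 for slc16a3.L and 0.14 for the kcnq1.L probeset that did not pass, and leaving out R2 and S4 gave −0.030 and 0.084. With 1 array left out, the ranges were −0.13 to 0.23 for slc48a1.S, −0.12 to 0.19 for the dimmer kcnk5.S, −0.13 to 0.09 for that kcnq1.L probeset, −0.38 to 0.45 for slc16a3.L and −0.31 to 0.014 for slc2a1.L. L minus R of slc48a1.L, near 0 in the report, was 0.033 with median centring, 0.596 with quantile normalisation, 0.917 with cyclic loess, 0.084 with array weights and −0.098 to 0.181 with 1 array left out. Signal near the floor limits the dim channels, whose differences have no exact size.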
